A study of Mus musculus with 6 samples.

Results

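Heat shock proteins and their J-domain co-chaperones were examined in A316 cells, a mouse primary adenocarcinoma line that lacks Cebpa, which encodes the transcription factor C/EBP alpha. The labels name PTC-209 as a Bmi inhibitor; 3 arrays carried RNA of cells treated with it in 0.5% DMSO, and 3 arrays RNA of cells in 0.5% DMSO only. All 6 samples therefore carried the Cebpa knockout and the vehicle. Dose, exposure time and clonality of the line were not stated. Nothing says that replicates were separate cultures, so the p-values may rest on technical spread alone. In such bulk RNA, fewer cells of a type and less RNA per cell cannot be told apart. Members were taken by gene symbol: the Hsp, Dnaja, Dnajb, Dnajc, Bag and Cct genes plus Hyou1, Cryab and Hsf2. This gave 89 genes of the 19937 named genes with a value, each read by its brightest probe set. Hsf1, Hsp90ab1 and Hspa1b had no probe set listing their symbol alone and were not analysed here. The symbol rule also takes 3 genes that are heat shock proteins or somatic chaperonins by name only: Hspg2, which encodes the matrix proteoglycan perlecan, Hspb11, an intraflagellar transport subunit, and Cct8l1.

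Heat shock proteins hold unfolded chains, refold them or pass them on for degradation. HSP70 proteins bind short hydrophobic stretches in an ATP cycle, in which J proteins deliver the substrate and stimulate ATP hydrolysis, and exchange factors (HSP110, BAG, GrpE and SIL1 proteins) release the nucleotide. Each compartment has its own set: Hspa8 in the cytosol, Hspa5 in the ER and Hspa9 in mitochondria. The factor HSF1 induces the cytosolic set on heat or proteotoxic stress, whereas the ER set responds to ATF6 and XBP1.

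In cells given PTC-209, 22 of the 89 members (24.7%) rose and 12 (13.5%) fell, against 12.9% of all named genes that rose and 13.7% that fell (26.6% called in either direction, and 23.7% of all probe sets; limma, adjusted p under 0.05). The median log2 difference, PTC-209 minus DMSO, was 0.087 over the members and 0.026 over all genes. The groups did not overlap for 34 members that were higher and 15 that were lower, against 21.1% and 19.4% of all genes (40.5% in either direction). Rises of at least 2-fold were 2 of the 89 members, against 2.23% of all genes, and falls of that size were also 2, against 4.3% of all genes. The members that rose were led by Dnajb9 and Hyou1 of the ER and Dnaja3 of mitochondria, and those that fell by the histone co-chaperone Dnajc9 and the small heat shock protein Cryab. The cytosolic chaperones Hspa8 and Hsp90aa1 did not pass the test. Of the 22 rises 14 and of the 12 falls 7 kept their call whichever array was left out. In both groups 17 members lay below 4.33, the median log2 level over the probe sets tested. Of these Hspa12a and Dnajc28 passed, with means of 3.62 and 3.61 on the PTC-209 arrays and 3.20 and 3.21 on the DMSO arrays. Among the 19937 named genes 8891 lay below it in both groups, and 288 of those passed. Dim genes thus lower the all-gene shares more than the member shares. With dim probe sets left out, 25 of 72 members were higher and 12 lower. Of the named genes that remained, 2775 were higher and 2917 lower, with 8891 of the 19937 dropped. Members then rose more often and fell less often than these genes, and were called about as often. The other shares given are set against all named genes, dim ones included. Brightness was not matched more closely.

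**Figure D1:**
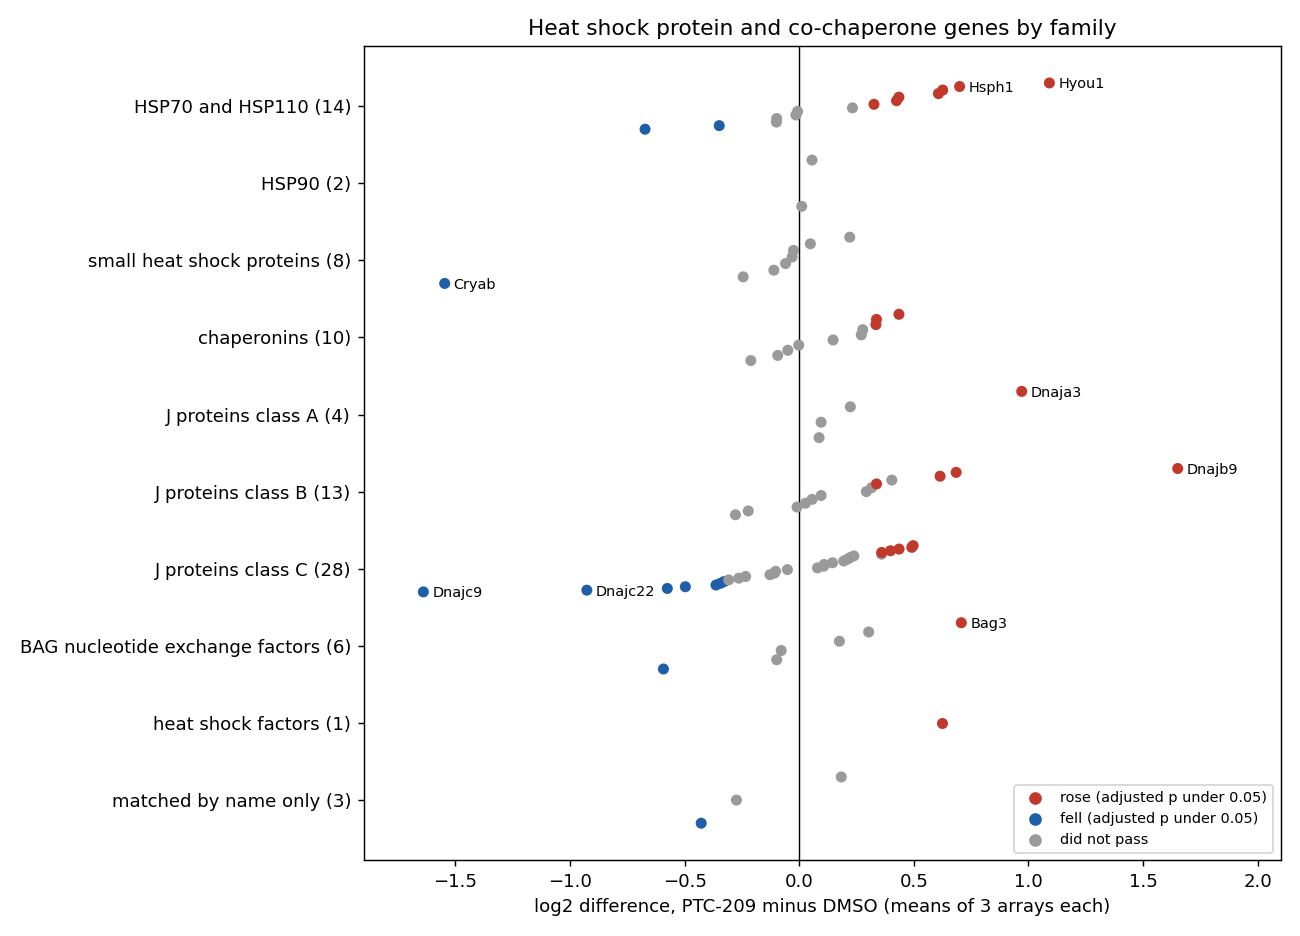
Log2 difference (PTC-209 minus DMSO, x axis) of each of the 89 genes, 1 point per gene, by protein family (y axis, number of genes in brackets); red points rose, blue points fell and grey points did not pass. Dnajb9 lies farthest right at 1.65 and Dnajc9 farthest left at -1.64, and both HSP90 genes lie close to 0.

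The label of the line was checked against cell type markers. Of 10 lung epithelium markers 7 reached the median brightness in at least 1 group, among them Epcam, Cdh1 and the keratins Krt8, Krt18, Krt19 and Krt7, while the lung lineage genes Nkx2-1, Sftpc and Scgb1a1 stayed below it in both groups. The summed level of that list lay between 12.32 and 12.51 (log2) with PTC-209 and between 13.13 and 13.29 in DMSO, the 4 keratins fell, and Cdh1 rose by 0.35 on the log2 scale (limma adjusted p = 0.0385). Among 5 endothelial markers only Cdh5 reached the median, and the summed level was 8.16 to 8.52 with PTC-209 and 9.52 to 9.61 in DMSO. Cdh5 alone fell, by 1.33 on the log2 scale, while Kdr, Tek, Pecam1 and Tie1 differed by 0.30, 0.12, 0.11 and 0.03 and did not pass. Of 5 measured leukocyte markers 1, Cd3e, reached it (summed level 5.89 to 5.96 with PTC-209 and 5.75 to 5.98 in DMSO), and of 7 fibroblast markers 4 did (7.18 to 7.24 with PTC-209 and 7.02 to 7.14 in DMSO). The part of these differences in the chaperone results was not tested. Bmi1, the gene whose product PTC-209 is meant to reduce, averaged 7.01 ± 0.075 with PTC-209 and 7.55 ± 0.14 in DMSO (log2, SD, n = 3 arrays each; limma adjusted p = 0.00424). Cebpa was under the median brightness in both groups, at 3.79 ± 0.12 and 3.65 ± 0.16, and where its probe set lies relative to the deletion is not given.

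Dnajb9 and Hyou1 rose the most of the ER members. Of the 13 members placed in the ER, 5 rose (38.5%: Dnajb9, Hyou1, Dnajc16, Dnajb11 and Hspa5), 2 fell (15.4%: Dnajc10 and Hspa13) and 6 did not pass. Their median log2 difference was 0.15, and of all named genes 12.9% rose and 13.7% fell. Dnajb9, or ERdj4, is a J protein that feeds misfolded proteins to ER-associated degradation and restrains the stress sensor IRE1. It read 7.41, 7.53 and 7.64 on the PTC-209 arrays and 6.08, 6.15 and 5.39 on the DMSO arrays (log2 expression). All 3 PTC-209 arrays were higher than any DMSO array, and the DMSO array at 5.39 stood below the other DMSO arrays. The level was 3.14-fold higher with PTC-209 (log2 difference 1.65, SE 0.186, limma adjusted p = 0.000155). Hyou1, also called GRP170, is the HSP110-type exchange factor of Hspa5. It read 8.78, 8.60 and 8.51 with PTC-209 and 7.82, 7.36 and 7.43 in DMSO, a 2.13-fold higher level (SE 0.137 on the log2 scale, limma adjusted p = 0.000295). The groups were apart on every array.

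Hspa5, or BiP, the HSP70 of the ER lumen, changed less. It read 11.04, 10.89 and 10.87 with PTC-209 and 10.55, 10.63 and 10.63 in DMSO. The groups did not overlap, and the level was 1.25-fold higher (95% confidence interval 0.11 to 0.54 on the log2 scale, limma adjusted p = 0.0322). This call was lost without any 1 of the 6 arrays (limma adjusted p 0.0525 to 0.110), after cyclic loess (0.124) and after a repeated quantile normalization (0.0749). It was also lost when a fold change above 1.2 was required. Over the 14 alternatives the limma adjusted p ranged from 0.00400 to 0.9996. Dnajb11, or ERdj3, a lumenal J protein that binds substrates of Hspa5, was 1.26-fold higher, and its call was lost when any array but the first DMSO array was left out, and after cyclic loess, median centring or a repeated quantile normalization. Dnajc16, a J protein of the ER membrane, was 1.41-fold higher. Other lumenal chaperones did not pass or fell. Hsp90b1, the HSP90 of the ER, read 10.87, 10.89 and 10.94 with PTC-209 and 10.76, 10.98 and 10.93 in DMSO, so the groups overlapped (log2 difference 0.01, 95% confidence interval -0.21 to 0.23). Dnajc3, or P58IPK, differed by 0.15 (95% confidence interval -0.06 to 0.35, limma adjusted p = 0.337). Dnajc10, or ERdj5, a disulfide reductase, was lower on all 3 PTC-209 arrays, with a log2 difference of -0.36 (limma adjusted p = 0.0198), and so was the ER ATPase Hspa13, at -0.35 (0.0461). Hspa13 lost its call without any 1 array and after median centring, and Dnajc10 without replicate 2 or 3 of either group.

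Promoters of 5 ER genes are shown, 4 that match a form of the ER stress element, through which ATF6 acts, and that of Dnajb9, which matches neither form. The ER stress element was searched as CCAAT, 9 bases of any kind and CCACG, on both strands in RefSeq windows of 250 bases before and 50 bases from the start site on (build GRCm38.p6). Windows were found for 72 of the 89 members. The element stood in 3 of these (4.17%), those of Hspa5, Hsp90b1 and Dnajc3, against 0.137% of 27025 genes with a window. Of these 3, Hspa5 rose, and Hsp90b1 and Dnajc3 did not pass. The related element II, ATTGG, 1 base of any kind and CCACG, stood in 1 member, Dnajb11, and in 0.0444% of all genes. Below, capitals mark the matches, and each sequence runs in the direction of its gene. Hspa5 lies at chr2:34771840-34772089 (plus strand), Hsp90b1 at chr10:86705515-86705674 (minus strand, 2 matches), Dnajc3 at chr14:118937807-118937866 (plus strand), and Dnajb11 at chr16:22857845-22857874 (plus strand, from the start site on). Dnajb9, at chr12:44210069-44210318 (minus strand), rose the most, and there the capitals mark the separate CCAAT and CCACG letters, which stand in the windows of 41.1% and 35.5% of all genes. A match describes letters and does not show that a factor binds there.
Hspa5: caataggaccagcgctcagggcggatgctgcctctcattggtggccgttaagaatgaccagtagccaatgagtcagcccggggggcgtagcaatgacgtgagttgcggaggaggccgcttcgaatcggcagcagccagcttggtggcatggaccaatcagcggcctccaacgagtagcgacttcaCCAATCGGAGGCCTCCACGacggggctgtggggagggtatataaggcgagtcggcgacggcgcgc
Hsp90b1: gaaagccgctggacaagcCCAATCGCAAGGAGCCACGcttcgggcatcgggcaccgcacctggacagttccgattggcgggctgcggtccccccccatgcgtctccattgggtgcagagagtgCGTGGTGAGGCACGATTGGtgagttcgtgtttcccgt
Dnajc3: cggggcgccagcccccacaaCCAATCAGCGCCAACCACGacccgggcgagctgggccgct
Dnajb11: ggcggcgATTGGCCCACGcctggctgctcg
Dnajb9: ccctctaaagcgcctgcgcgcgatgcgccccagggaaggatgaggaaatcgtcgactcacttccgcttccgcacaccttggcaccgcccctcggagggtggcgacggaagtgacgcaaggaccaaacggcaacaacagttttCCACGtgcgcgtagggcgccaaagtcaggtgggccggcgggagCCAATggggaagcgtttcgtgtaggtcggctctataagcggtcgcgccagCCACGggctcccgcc

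The mitochondrial HSP70, its J protein and its exchange factors rose, while another J protein fell. Of the 8 members placed there 2 rose (25%: Dnaja3 and Hspa9), 1 fell (12.5%: Dnajc19) and 5 did not pass. Among all named genes 12.9% rose and 13.7% fell. Hspa9, or mortalin, the HSP70 that pulls preproteins into the matrix and folds them, read 11.53, 11.40 and 11.43 with PTC-209 and 10.79, 10.86 and 10.84 in DMSO. The groups lay well apart, a 1.54-fold higher level (SE 0.0905 on the log2 scale, limma adjusted p = 0.000717). Its J protein Dnaja3, or TID1, read 8.23, 8.23 and 8.38 with PTC-209 and 7.36, 7.33 and 7.24 in DMSO, a 1.96-fold higher level (limma adjusted p = 6.16e-05). Every PTC-209 array exceeded every DMSO array. The genes of its nucleotide exchange factors, which the symbol rule does not take, rose as well, Grpel1 1.70-fold and Grpel2 2.48-fold, and so did Hscb, the J protein of iron-sulfur cluster assembly, 1.57-fold. Dnajc19, a J protein of the import motor at the inner membrane, went the other way. It read 5.82, 5.58 and 5.70 with PTC-209 and 6.33, 6.42 and 6.07 in DMSO, without overlap (log2 difference -0.58, limma adjusted p = 0.00637).

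The mitochondrial chaperonin did not pass. Hspd1, or HSP60, read 10.98, 11.12 and 11.04 with PTC-209 and 10.64, 10.86 and 10.82 in DMSO, so the groups were apart, with a log2 difference of 0.27 (95% confidence interval 0.04 to 0.50, limma adjusted p = 0.0876). It passed with a trended and robust prior (0.0202) and when dim probe sets were left out (0.0443). A further probe set listing Hspd1 alone overlapped between the groups, with a difference of 0.03 (limma adjusted p = 0.895). The mean over the probe sets of Hspd1 differed by 0.15 (0.339). Its co-chaperonin Hspe1, or HSP10, read 11.70, 11.71 and 11.78 with PTC-209 and 11.35, 11.79 and 11.60 in DMSO. These groups overlapped, and the difference was 0.15 (95% confidence interval -0.12 to 0.42, limma adjusted p = 0.470). A further probe set listing Hspe1 alone also overlapped, with a difference of 0.39 (0.183).

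**Figure D2:**
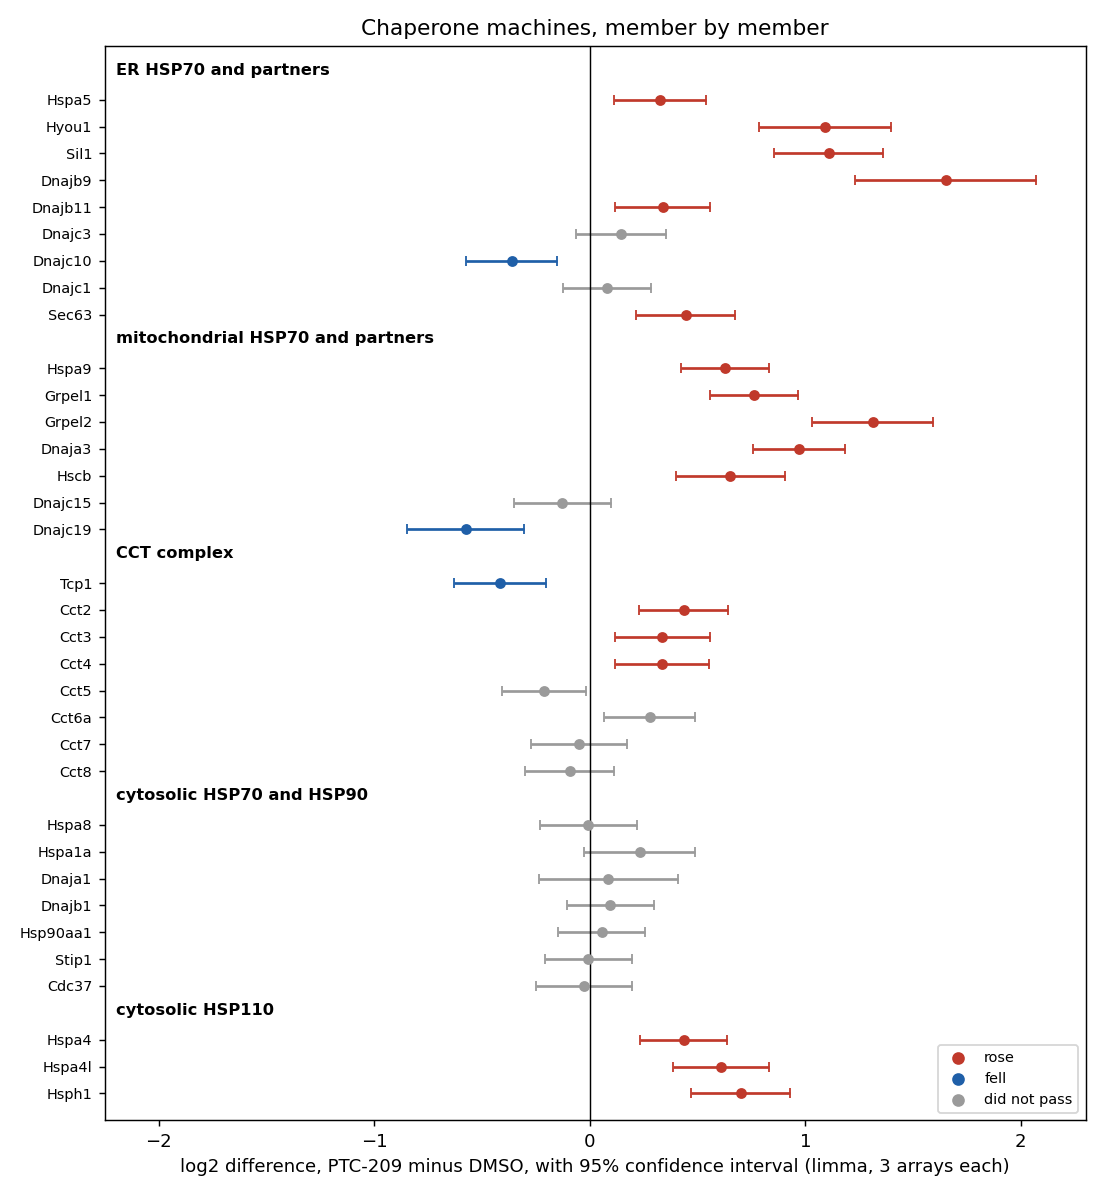
Log2 difference (PTC-209 minus DMSO, x axis) with its 95% confidence interval for the subunits and partners of 5 chaperone machines (y axis), including genes outside the symbol rule; red rose, blue fell, grey did not pass. The ER and mitochondrial HSP70 partners reach 1.65 (Dnajb9) and 1.31 (Grpel2), and 7 genes of the cytosolic HSP70 and HSP90 cycle, including Stip1 and Cdc37 and chosen after their values were seen, lie between -0.03 and 0.23.

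In the cytosol exchange factors of the HSP110 family passed the test, and the brightest probe set of Hspa8, which they serve, did not. All 3 HSP110 genes of the cytosol rose, as did Hyou1 in the ER, against 12.9% of all named genes (this family was singled out after its values were seen). Of the 14 HSP70 and HSP110 genes together 7 rose (50%) and 2 fell (14.3%), against 12.9% and 13.7% of all named genes. Hsph1, or HSP105, rose 1.62-fold (limma adjusted p = 0.000766), Hspa4l 1.52-fold (0.00146) and Hspa4, or APG-2, by 0.43 on the log2 scale (0.00560), with no overlap between the groups for any of them. Hspa8, the constitutive HSC70, read 11.34, 11.33 and 11.35 with PTC-209 and 11.19, 11.45 and 11.40 in DMSO. Its PTC-209 arrays lay within the range of the DMSO arrays, and the difference was -0.01 (95% confidence interval -0.23 to 0.22). Hsp90aa1, the inducible HSP90, read 11.61, 11.66 and 11.59 with PTC-209 and 11.51, 11.62 and 11.57 in DMSO, also overlapping (0.06, 95% confidence interval -0.15 to 0.26). The 2 further probe sets listing Hsp90aa1 alone did not pass, but were higher on every PTC-209 array, with log2 differences of 0.33 (limma adjusted p = 0.0855) and 0.82 (0.165), and the mean over its probe sets differed by 0.40 (0.150). For Hspa8 the 2 further probe sets differed by 0.32 (0.124, without overlap) and 0.25 (0.445, overlapping), and the mean over its probe sets by 0.19 (0.410). Another 2 probe sets, which list Hspa8 together with the small nucleolar RNA genes Snord14c and Snord14d, fell by 1.18 (0.00360) and 1.01 (0.0231) and cannot be assigned to 1 of these genes.

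Classical targets of the heat shock factor were split. Of 13 measured members 3 rose (23.1%: Bag3, Hsph1 and Hspa4l), 1 fell (7.69%: Cryab) and 9 did not pass. Their median log2 difference was 0.096, and of all named genes 12.9% rose and 13.7% fell. Bag3, which hands HSP70 clients to selective autophagy, read 8.38, 8.44 and 8.36 with PTC-209 and 7.82, 7.57 and 7.66 in DMSO. The groups were apart, a 1.63-fold higher level (limma adjusted p = 0.000612). Hspa1a, the stress-inducible HSP70, read 5.44, 5.44 and 5.25 with PTC-209 and 4.97, 5.17 and 5.29 in DMSO, overlapping (log2 difference 0.23, 95% confidence interval -0.02 to 0.49, limma adjusted p = 0.197). Hspa1a has a near-identical neighbour, Hspa1b, so its own level is uncertain. A brighter probe set that lists both, and was not counted, averaged 6.19 with PTC-209 and 6.05 in DMSO. Its groups overlapped (log2 difference 0.13, limma adjusted p = 0.433). Dnajb1, the J protein most tied to the heat shock response, read 7.63, 7.59 and 7.57 with PTC-209 and 7.55, 7.45 and 7.50 in DMSO, higher on every array by a difference that did not pass (0.10, 95% confidence interval -0.10 to 0.30). Dnaja1, a farnesylated J protein of Hspa8, read 10.38, 10.55 and 10.49 with PTC-209 and 10.06, 10.60 and 10.50 in DMSO, and its first DMSO array stood below the other 5. The groups overlapped, with a difference of 0.09 (limma adjusted p = 0.753). A further probe set listing Dnaja1 alone differed by -0.17 (0.407), and there the first DMSO array was the highest, at 7.92. Hsf2, a partner of HSF1 in mixed trimers, rose: it read 8.32, 8.09 and 8.27 with PTC-209 and 7.58, 7.58 and 7.65 in DMSO, a 1.54-fold higher level (limma adjusted p = 0.00120).

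The heat shock element, the site of HSF1 and HSF2, was searched as GAA, TTC and GAA with 2 bases of any kind between neighbours, on both strands. It stood in 4 of the 72 member windows (5.56%), against 0.662% of all genes. Of these 4, Hsph1 rose, and Dnajb6, Hspd1 and Hspe1 did not pass. Hspd1 and Hspe1 are divergent neighbours that share the same stretch. Dnajb6 was higher on every PTC-209 array by 0.29 on the log2 scale (limma adjusted p = 0.132), and 3 brighter probe sets, which list it beside Gm4247 and were not counted, differed by 0.43 (0.0185), 0.45 (0.0107) and 0.67 (0.0760). The matches are shown with capitals for the matched letters (GRCm38.p6). Hspe1 is given at chr1:55088053-55088082 (plus strand, where 2 matches overlap), Dnajb6 at chr5:29735844-29735873 (plus strand) and Hsph1 at chr5:149636272-149636301 (minus strand, after the start site).
Hsph1: aTTCTGGAAAGTTCtcctcagtaggctaca
Dnajb6: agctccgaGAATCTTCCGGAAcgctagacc
Hspe1: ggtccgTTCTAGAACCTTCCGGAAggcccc

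Small heat shock proteins, which hold unfolding proteins without ATP, were represented by 8 genes. Of these 0 rose and 1 fell (12.5%), against 12.9% and 13.7% of all named genes. Cryab, alpha B-crystallin, read 6.58, 6.53 and 6.46 with PTC-209 and 8.13, 7.996 and 8.08 in DMSO. The groups were far apart, and the level was 2.92-fold lower with PTC-209 (log2 difference -1.55, SE 0.0928, limma adjusted p = 2.94e-06). Hspb1, or HSP27, read 5.16, 4.53 and 4.61 with PTC-209 and 5.36, 4.83 and 4.85 in DMSO, with the first array of each group above its partners (log2 difference -0.24, 95% confidence interval -0.68 to 0.19). A further probe set listing Hspb1 alone lay under the median brightness, at 3.48 with PTC-209 and 3.42 in DMSO, and did not pass (difference 0.05). The other 6 genes of the family (Hspb2, Hspb3, Hspb6, Hspb7, Hspb8 and Hspb9) differed by -0.11 to 0.22 and did not pass, and 3 of them lay under the median brightness in both groups.

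Chaperonins of the CCT complex, the cytosolic ring that folds actin and tubulin from 8 different subunits, did not change alike. Of the 7 subunits taken by the rule 3 rose (42.9%, against 12.9% of all named genes). These were Cct2 by 0.44 on the log2 scale (limma adjusted p = 0.00633), Cct3 by 0.34 (0.0336) and Cct4 by 0.33 (0.0325). Cct5, Cct6a, Cct7 and Cct8 differed by -0.21, 0.28, -0.05 and -0.09 on the log2 scale and did not pass. The groups of Cct5 and Cct6a did not overlap. Cct5 passed after cyclic loess, after a repeated quantile normalization and with a trended and robust prior. Cct6a passed with that prior and when dim probe sets were left out. Tcp1, the alpha subunit, whose symbol falls outside the rule, read 9.66, 9.59 and 9.54 with PTC-209 and 9.91, 10.09 and 10.05 in DMSO, a 1.34-fold lower level (limma adjusted p = 0.0103). Each of the arrays with PTC-209 was below each of those with DMSO. The calls of Cct3 and Cct4 were lost with the replicate number as a block, after cyclic loess and without replicate 1 or 3 of either group, and Cct4 also after a repeated quantile normalization. Cct2 kept its call whichever array was left out.

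J proteins, the substrate-delivering partners of HSP70, gave 45 genes, of which 10 rose (22.2%), 7 fell (15.6%) and 28 did not pass. Of all named genes 12.9% rose and 13.7% fell. In classes A and B, whose members resemble bacterial DnaJ over more of their length, 5 of 17 rose (Dnaja3, Dnajb9, Dnajb4, Dnajb2 and Dnajb11) and 0 fell. In class C, which shares only the J domain, 5 of 28 rose (17.9%) and all 7 falls of J proteins lay there (25%). The difference between the classes was not tested. Dnajb4, a cytosolic relative of Dnajb1, rose 1.61-fold (limma adjusted p = 0.000727) and Dnajb2, or HSJ1, which binds ubiquitin, averaged 4.92 with PTC-209 and 4.30, under the median brightness, in DMSO (0.00327). Of the class C genes that rose, none exceeded a log2 difference of 0.50: Dnajc16, Dnajc4, Dnajc2, Dnajc28 and Dnajc21.

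Dnajc9, a J protein that also chaperones histones H3 and H4, fell the most of all 89 genes. It read 7.30, 7.28 and 7.30 with PTC-209 and 8.71, 9.10 and 9.00 in DMSO. The PTC-209 arrays were close together and lay far below the DMSO arrays, a 3.12-fold lower level (log2 difference -1.64, SE 0.115, limma adjusted p = 7.66e-06). Its start region holds a match to the E2F site GCGGGAAA, which on either strand is found in 1.24% of gene windows and in 2 members, Dnajc9 and Dnajc19. The C/EBP-ATF element TGATGNAA, the remaining motif searched, stood in 4.51% of gene windows and in 1 member, Hspa14, which fell. The stretch is shown with the match in capitals (chr14:20388861-20388890, minus strand, GRCm38.p6, after the start site).
Dnajc9: ggcgcccagagttatttggGCGGGAAAagg

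Dnajc22, a J protein with several membrane spans, read 5.22, 4.57 and 5.06 with PTC-209 and 5.99, 5.76 and 5.88 in DMSO. All PTC-209 arrays were lower, the second by the most, and the level was 1.90-fold lower (SE 0.162 on the log2 scale, limma adjusted p = 0.00226). The remaining falls were smaller, from -0.33 to -0.58 on the log2 scale, and comprised Dnajc19, Dnajc25, Dnajc10, Dnajc7, which bridges HSP70 and HSP90, and Dnajc24, which acts in diphthamide synthesis. The 2 members of the ribosome-associated complex, which meets nascent chains at the ribosome exit, moved in opposite directions. Its J protein Dnajc2 read 8.33, 8.62 and 8.57 with PTC-209 and 8.09, 8.07 and 8.06 in DMSO (log2 difference 0.44, limma adjusted p = 0.0129). Its HSP70 Hspa14 read 7.70, 7.61 and 7.62 with PTC-209 and 8.27, 8.33 and 8.36 in DMSO (-0.67, limma adjusted p = 0.000439). Neither gene's groups overlapped, and the Dnajc2 call was lost without the second PTC-209 array. This pair, too, was singled out after its values were seen.

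Dnajc13, or RME-8, an endosomal J protein, has 15 probe sets of its own. All 15 differences were negative, between -0.57 and -0.04 on the log2 scale, and 3 of the 15 passed. The brightest, which stands for the gene, differed by -0.26 and did not pass (limma adjusted p = 0.230), but passed without the first DMSO array. That array was the lowest of its group on 20 of the 22 other probe sets of members, 14 of which are those of Dnajc13, against 36 of the 89 brightest probe sets and 31.1% of all genes. The J proteins listed for vesicles and endosomes, Dnajc5, Dnajc6, Dnajc13 and Dnajc27, gave 0 calls among 4, against 26.6% of all named genes called.

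BAG proteins, the exchange factors that couple HSP70 to other pathways, gave 6 genes, of which 1 rose, Bag3, and 1 fell, Bag5. Each is 16.7% of the family, close to the 12.9% of all named genes that rose and the 13.7% that fell. Bag5, which has several BAG domains, read 6.44, 6.40 and 6.48 with PTC-209 and 7.17, 6.89 and 7.03 in DMSO, without overlap, a 1.51-fold lower level (limma adjusted p = 0.00211). Bag1, Bag2, Bag4 and Bag6 differed by -0.08, 0.18, -0.10 and 0.30 on the log2 scale and did not pass. Hspg2, taken by its symbol only, was the remaining fall, at -0.43 (limma adjusted p = 0.0132), and it lost its call without the third PTC-209 array.

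**Figure D3:**
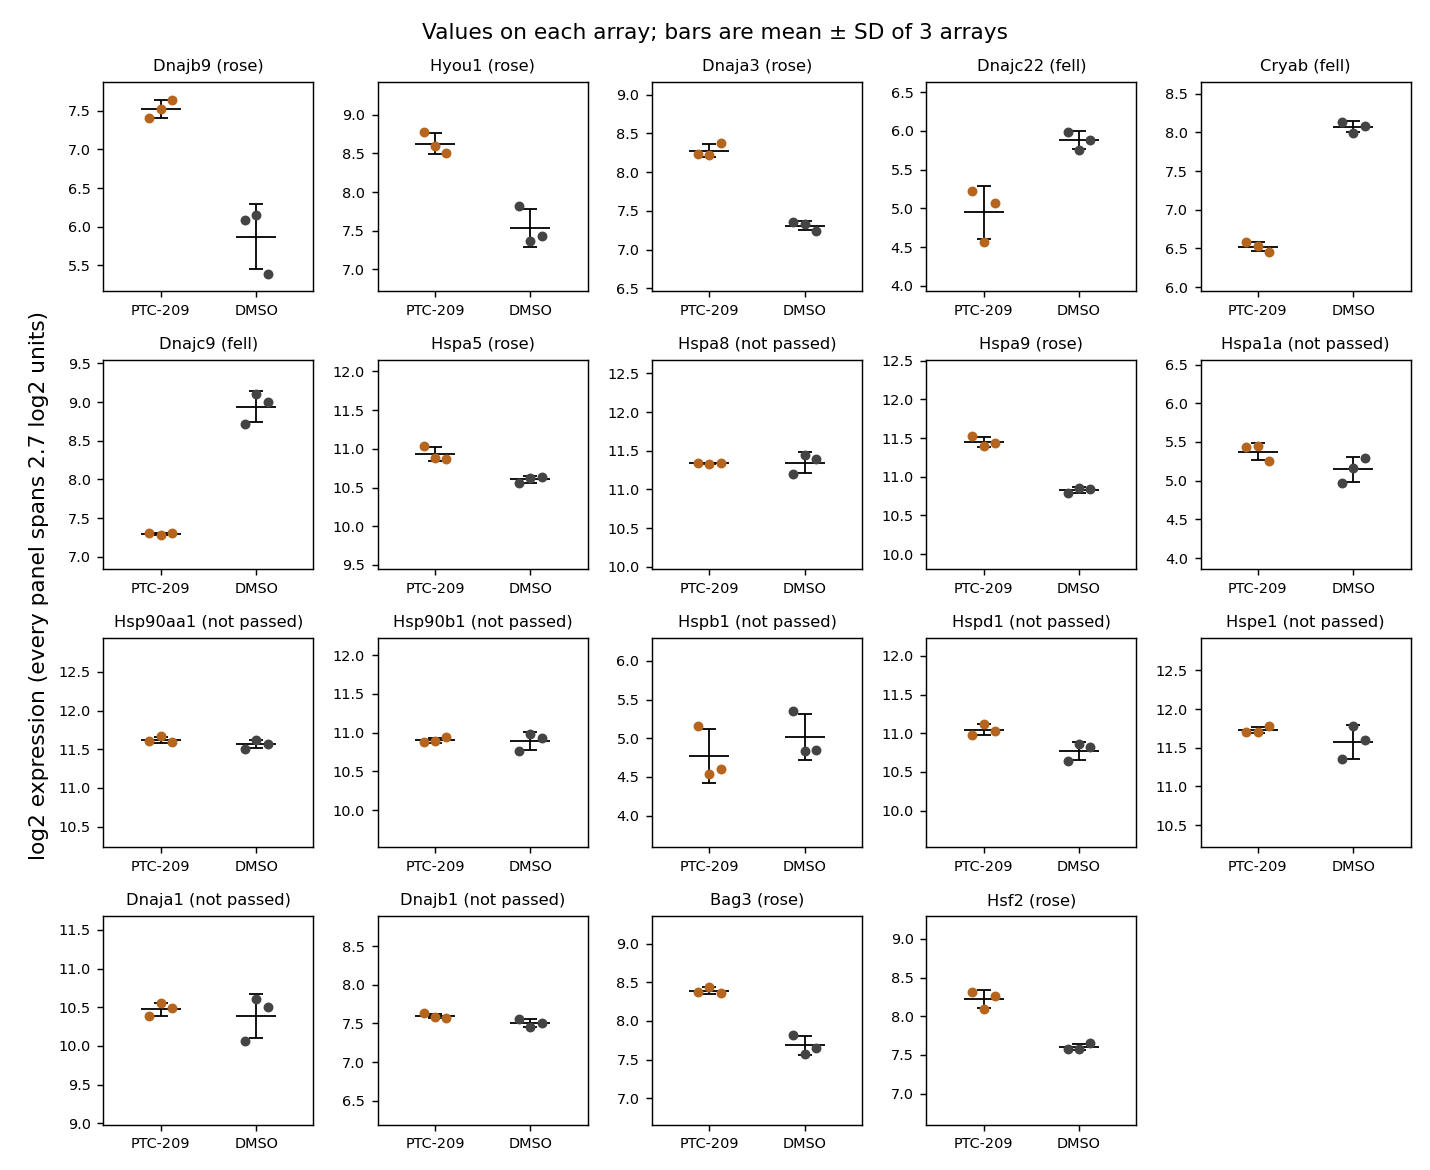
Log2 expression (y axis, with panels of equal span) on each array for the 19 genes given array by array under the naming rule, with PTC-209 left of DMSO; points are arrays and bars the mean ± SD of 3. The 6 genes with the largest passing differences come first and show groups far apart, while Hspa8, Hsp90aa1 and Hsp90b1 overlap.

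Other chaperone, co-chaperone and protease genes, from a list that the symbol rule does not take, numbered 38 measured. Of these 14 rose (36.8%) and 7 fell (18.4%), against 12.9% and 13.7% of all named genes. Their median log2 difference was 0.21. In both groups 3 of the 38 lay below the median brightness, against 8891 of the 19937 named genes. Those past the threshold with a difference of at least 0.5 numbered 14. Among them Lonp1, the matrix protease, read 9.33, 9.31 and 9.16 with PTC-209 and 7.77, 7.65 and 7.74 in DMSO, a 2.93-fold higher level (limma adjusted p = 3.57e-06). Sil1, another exchange factor of Hspa5, rose 2.16-fold (7.77e-05), and St13, or HIP, which stabilises HSP70 with its substrate, 1.71-fold (0.000156). Hspbp1, an exchange factor of cytosolic HSP70, rose 1.56-fold (0.00141), Gak, the auxilin of non-neuronal cells, 1.52-fold (0.00305), Sgta, of the tail-anchored protein route, 1.51-fold (0.0121), and the HSP90 co-chaperone Ptges3, or p23, 1.45-fold (0.0160).

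Trap1, the mitochondrial HSP90, fell more than any member. It read 6.07, 5.76 and 5.80 with PTC-209 and 8.05, 7.82 and 7.57 in DMSO, a 3.84-fold lower level (limma adjusted p = 9.66e-06). Mitochondrial genes of this list went both ways: Clpb, a disaggregase of the intermembrane space, fell 1.62-fold (0.000652), while Grpel1, Grpel2, Lonp1 and, by 0.32 on the log2 scale, the protease Clpp rose. Among HSP90 co-chaperones Nudc was 1.82-fold lower (7.55e-05) and Fkbp5, an immunophilin, 1.70-fold lower (0.00676), while Stip1 and Cdc37, which load clients, differed by -0.01 and -0.03 and did not pass. Prefoldin, which passes chains to the CCT complex, gave 1 rise, Pfdn2, among 6 subunits (16.7%, against 12.9% of all named genes).

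**Figure D4:**
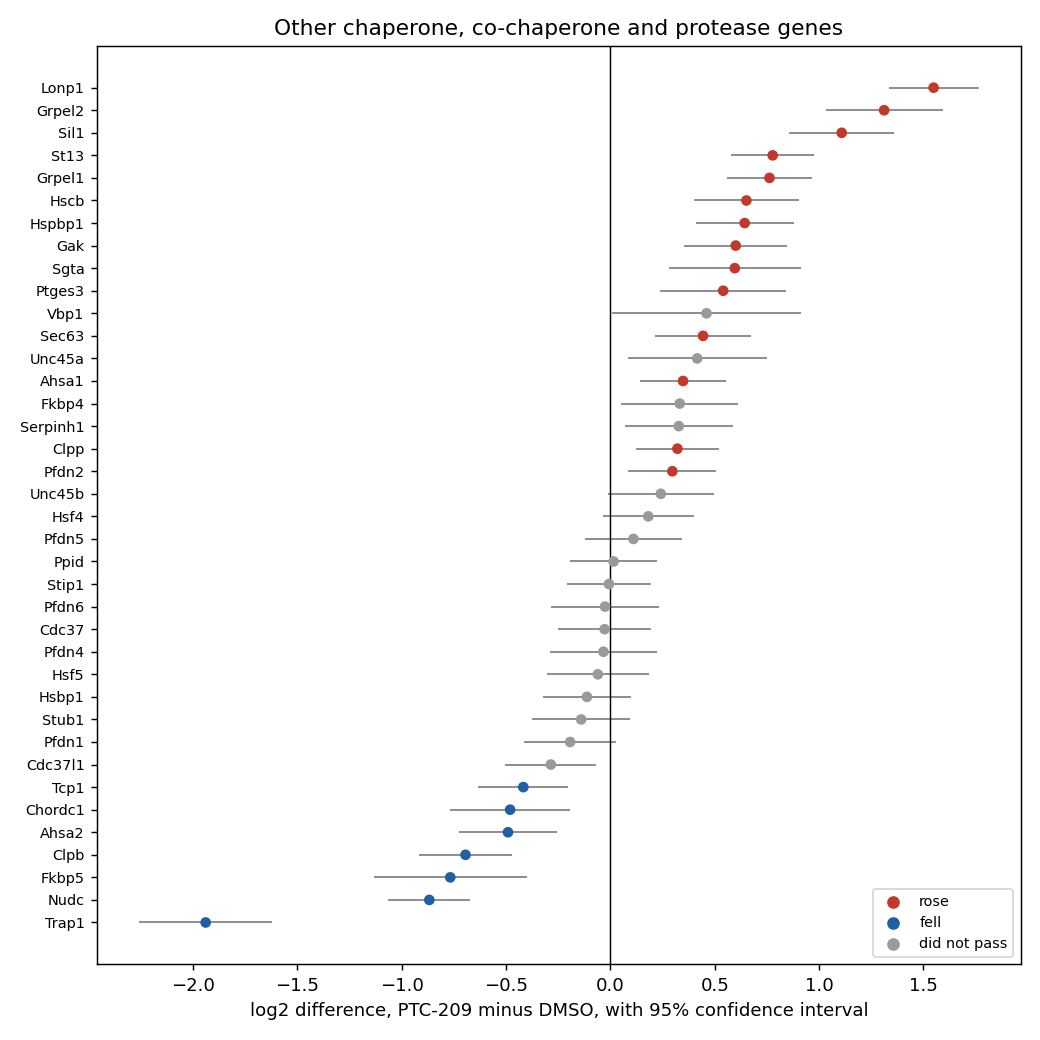
Log2 difference (PTC-209 minus DMSO, x axis) with its 95% confidence interval for the 38 chaperone, co-chaperone and protease genes outside the symbol rule (y axis, sorted); red rose, blue fell, grey did not pass. Lonp1 (1.55) and Grpel2 (1.31) lie at the top and Trap1 (-1.94) at the bottom.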

How the data were processed

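Expression was measured on 6 Affymetrix arrays (3 PTC-209, 3 DMSO), grouped by the sample titles. The authors deposited log2 values made with RMA, per the submitters' processing notes (its version is not stated). Values between 0.634 and 13.3 fit that log2 scale. Because RMA forces arrays to one distribution, it hides any change common to most genes. Precision rests on how many arrays there are. A block of 6568 control probe sets was left out, which left 28192. Genes were named from the platform annotation, and 9 probe sets listing a member beside other genes were not counted. The values were fitted with limma 3.58.1 (R 4.3.3; treatment only, constant prior), and the Benjamini-Hochberg adjustment covered the 28192 probe sets. The fit was tested on simulated data. Array-by-array values are given for members past the threshold with an absolute log2 difference of at least 0.8 and for a fixed set of core chaperones. Other arrays are shown where a contrast needs them, chosen after their values were seen. The members, lists and naming rule were chosen with earlier results of these data known. Deviations of same-numbered arrays correlated at 0.231, 0.0703 and 0.0733, and those of unlike-numbered arrays at -0.163 to 0.105. These values do not settle whether arrays were paired, and the labels name no pairs. The number was therefore used as a block only as an alternative. The 14 alternatives are described in the closing section. Promoter windows came from RefSeq. Figures were drawn with matplotlib 3.10.9.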

Additional observations from a re-analysis of the deposited data

How the results depend on the processing

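Against 22 members higher and 12 lower, and 14 other chaperone genes higher and 7 lower, requiring a fold change above 1.2 left 9 and 5 members and 7 and 4 other genes. With 1 array left out the counts were 16 to 19 members higher, 7 to 12 lower, 10 to 15 other genes higher and 6 to 7 lower; the count of members lower was 7 without PTC-209 replicate 3. With the replicate block, which rests on numbers that the labels do not say pair the samples, the counts were 20 and 12 members and 15 and 7 other genes. Median centring, cyclic loess, a repeated quantile normalization, averaging the probe sets of a gene, omitting dim probe sets and a robust trended prior each kept every count within 1.5 times. Under all 14 alternatives 9 rises (Bag3, Dnaja3, Dnajb4, Dnajb9, Hsf2, Hspa4l, Hspa9, Hsph1 and Hyou1) and 5 falls (Bag5, Cryab, Dnajc22, Dnajc9 and Hspa14) kept their call. Only 4 of the genes recomputed under every alternative changed sign, none of them past the threshold either way. Dnaja1 was at -0.0128 after cyclic loess and -0.0441 as the mean of its probe sets, and ranged over -0.0783 to 0.194 with 1 array left out. Hsp90aa1 was at -0.0595 after cyclic loess and -0.0547 after a repeated quantile normalization. Hsp90b1 was at -0.0952 after cyclic loess and -0.0340 after a repeated quantile normalization, and ranged over -0.0536 to 0.0555 with 1 array left out. Hspa8 was at 0.186 as the mean of its probe sets and ranged over -0.0829 to 0.0427 with 1 array left out. Tcp1 was not recomputed singly. The causes were not tested. With 3 arrays a group, 0 members passed with an absolute log2 difference under 0.326.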
